A study of Mus musculus with 5 samples.

Results

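Hcn4, Shox2, Tbx18 and Vsnl1, genes of the venous inflow of the embryonic heart, were followed through 5 mouse tissue libraries. The 4 genes were taken by name from a table of 12375 named loci (14053 loci in all), and each had 1 row. They were chosen on their FPKM in the liver library set against the other libraries, so those levels and differences are given as a description, and no test is attached to them. The libraries came from C57BL/6J embryos: E10.5 (embryonic day) liver, ventral pancreas and dorsal pancreas, and E8.5 foregut and medial foregut. The study set liver against pancreas progenitors. No treatment or genetic change is named in the labels, nor how the tissues were dissected or whether embryos were pooled. Poly(A) RNA of each tissue was sequenced as 1 paired-end library. Without replicates no difference could be set against a replicate spread, and no p-value was computed. Values are FPKM, fragments scaled to transcript length and library size, so levels of different genes can be compared per length.

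The sinus venosus is the chamber through which blood enters the embryonic heart. Its muscle forms late, from mesoderm beside the septum transversum, the tissue into which the liver bud grows, and it gives rise to the sinoatrial node, the pacemaker of the heart. Shox2 encodes a homeobox factor that keeps Nkx2-5 low in the mouse sinoatrial node. Tbx18 encodes a T-box factor needed for the sinus horns and is also made in the epicardium. Hcn4 encodes the main channel of the pacemaker current and is made early in the heart-forming mesoderm, and Vsnl1 encodes visinin-like 1, a calcium sensor found in neurons and in sinoatrial muscle.

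The stretches of 250 bases before the annotated start of each gene are shown because the 4 genes fell into pairs with like patterns, described below. They are RefSeq promoters on GRCm38.p6, a build other than the mm9 of the table. Capitals mark matches, on either strand, to 1 of 6 motifs: AGGTGT (T-box core), TNAAGTG (NK2 homeobox), TAATTA (homeobox core), AGATAA (for GATA factors), TATAAA (the TATA box) and the MEF2 motif. The windows are chr9:58822699-58822948 on the plus strand for Hcn4, chr3:66981772-66982021 on the minus strand for Shox2, chr9:87731261-87731510 on the minus strand for Tbx18 and, for the outer of the pair of Vsnl1 starts, chr12:11436579-11436828 on the minus strand.
Shox2: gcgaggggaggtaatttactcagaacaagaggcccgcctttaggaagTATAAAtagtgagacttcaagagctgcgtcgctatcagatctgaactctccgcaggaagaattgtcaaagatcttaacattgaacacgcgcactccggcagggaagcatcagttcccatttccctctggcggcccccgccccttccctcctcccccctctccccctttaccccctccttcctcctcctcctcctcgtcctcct
Tbx18: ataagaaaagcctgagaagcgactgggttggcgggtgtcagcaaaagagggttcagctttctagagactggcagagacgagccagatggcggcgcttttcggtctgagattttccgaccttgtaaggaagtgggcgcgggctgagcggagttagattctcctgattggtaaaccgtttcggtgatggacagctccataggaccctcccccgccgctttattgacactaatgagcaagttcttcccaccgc
Hcn4: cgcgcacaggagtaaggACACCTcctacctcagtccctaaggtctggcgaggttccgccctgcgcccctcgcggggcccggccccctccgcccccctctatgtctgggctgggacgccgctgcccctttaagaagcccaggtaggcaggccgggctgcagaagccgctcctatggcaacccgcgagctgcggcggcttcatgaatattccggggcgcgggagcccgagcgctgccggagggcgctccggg
Vsnl1: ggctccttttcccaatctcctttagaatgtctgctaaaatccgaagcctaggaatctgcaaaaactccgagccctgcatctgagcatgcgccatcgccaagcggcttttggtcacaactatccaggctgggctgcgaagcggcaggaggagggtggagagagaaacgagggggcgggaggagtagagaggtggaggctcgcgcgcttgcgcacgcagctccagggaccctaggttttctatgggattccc
The Hcn4 window held 1 T-box core (as ACACCT, its reverse complement) at position -233 from the start, a motif held by 11.8% of 32851 such windows. Shox2 held 1 TATA motif at position -203, against 12.4% of all windows. No match to the 6 motifs was found in the Tbx18 window or in either Vsnl1 window. NK2, homeobox core, GATA and MEF2 motifs, which were in none of the windows of the 4 genes, were held by 10.1%, 4.84%, 9.99% and 3.20% of all windows. GC content was 71.2% for Hcn4, 55.6% for Shox2 and 54.0% for Tbx18, against a median of 52.4%. For Vsnl1 it was 58.0% in the outer window and 41.6% in the inner one, so its starts lay on either side of that median.

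Shox2 and Tbx18, the transcription factor genes, had their highest level in the liver library. Shox2 (chromosome 3, 66772702 to 66786480, minus strand, mm9) measured 10.8 FPKM in liver, 7.27 in ventral pancreas, 0.503 in dorsal pancreas, 1.42 in foregut and 0.736 in medial foregut. It was thus high in the liver and ventral pancreas libraries and low in the other 3. Tbx18 (chromosome 9, 87597633 to 87626355, minus strand) measured 10.45 FPKM in liver, 1.78 in ventral pancreas, 0.108 in dorsal pancreas, 0.834 in foregut and 0.704 in medial foregut. Here liver stood apart from each of the other libraries. In FPKM the liver level of Tbx18 was 5.87 times that of ventral pancreas, 97.0 times that of dorsal pancreas, 12.5 times that of foregut and 14.9 times that of medial foregut. For Shox2 the liver level was 1.49 times that of ventral pancreas, 21.5 times that of dorsal pancreas, 7.65 times that of foregut and 14.7 times that of medial foregut. Ratios against values under 1 FPKM carry no stated precision, since the depth in reads is unknown.

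Hcn4 and Vsnl1, the channel and calcium sensor genes, had their highest levels at E8.5, with liver between them and the pancreatic libraries. Hcn4 (chromosome 9, 58669949 to 58716523, plus strand) measured 5.00 FPKM in liver, 1.10 in ventral pancreas, 2.55 in dorsal pancreas, 16.2 in foregut and 22.8 in medial foregut. Vsnl1 (chromosome 12, 11332054 to 11443477, minus strand) measured 8.10 FPKM in liver, 0.0574 in ventral pancreas, 0.269 in dorsal pancreas, 11.4 in foregut and 13.6 in medial foregut. Both genes were higher in liver than in the pancreatic libraries and lower in liver than at E8.5. The liver level of Hcn4 was 4.54 times that of ventral and 1.96 times that of dorsal pancreas, and 0.308 and 0.220 times that of foregut and medial foregut. For Vsnl1 the liver level was 30.1 times that of dorsal pancreas and 0.710 and 0.594 times those of foregut and medial foregut. Against ventral pancreas the ratio was 141, over a level that only 0.921% of named loci undercut there. In all 4 genes liver stood above both pancreatic libraries, as it did for 30.8% of named loci, but only Shox2 and Tbx18 peaked in liver. The genes were picked on their liver values, so the shared excess restates that choice.

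**Figure D1:**
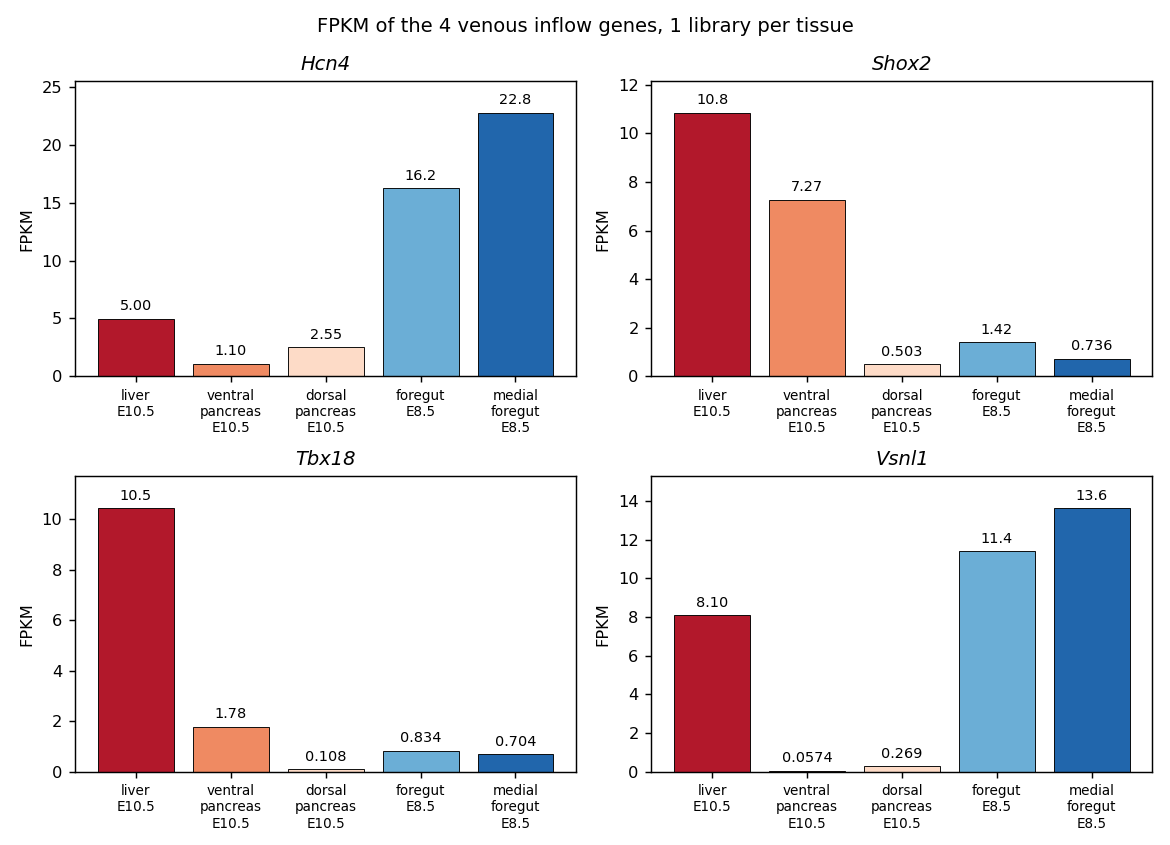
Bars give the FPKM of Hcn4, Shox2, Tbx18 and Vsnl1 (1 panel each, each with its own axis from 0) in the 5 libraries, 1 library per bar and no error bars. Shox2 and Tbx18 are highest in liver, at 10.8 and 10.45 FPKM, and Hcn4 and Vsnl1 in medial foregut, at 22.8 and 13.6 FPKM.

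In order of level, Hcn4 ran from medial foregut through foregut, liver and dorsal pancreas down to ventral pancreas, and Vsnl1 had the same order. Shox2 and Tbx18 shared the other order, from liver through ventral pancreas, foregut and medial foregut down to dorsal pancreas. The widest step between neighbours was 30.1 times for Vsnl1, between liver and dorsal pancreas, and 6.53 times for Tbx18, between medial foregut and dorsal pancreas. For Shox2 it was 5.12 times, between ventral pancreas and foregut, and for Hcn4 3.25 times, between foregut and liver. The narrowest steps were 1.19 times for Tbx18, between foregut and medial foregut, and 1.20 times for Vsnl1, between medial foregut and foregut. With 1 library per tissue it cannot be said which neighbours in these orders would differ beyond replicate spread.

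Differences were also read as log2(FPKM + 1), a scale that compresses differences between low values. Counts of higher or lower genes take those that differed by at least 2 on this scale, 4 times in FPKM + 1, from each library compared, with at least 5 FPKM in the higher library. Tbx18 and Vsnl1 were counted as higher in liver than in both pancreatic libraries, 2 of 4 genes, against 1.04% of all named loci. The liver minus ventral and liver minus dorsal differences were 2.04 and 3.37 for Tbx18 and 3.11 and 2.84 for Vsnl1. Shox2, at 0.52 and 2.98, and Hcn4, at 1.51 and 0.76, were not counted. Shox2 and Tbx18 were counted as higher in liver than in both E8.5 libraries, 2 of 4 genes, against 2.29% of all named loci. The liver minus foregut and liver minus medial foregut differences were 2.29 and 2.77 for Shox2 and 2.64 and 2.75 for Tbx18. Those of Hcn4 were -1.52 and -1.99 and those of Vsnl1 -0.45 and -0.69, and neither gene was counted as lower, as 2.12% of named loci were. Tbx18 alone of the 4 genes was counted as higher in liver than in each of the other 4 libraries, against 0.824% of all named loci. None of the 4 was counted as lower in liver than in both pancreatic libraries or than in each of the other 4, against 1.51% and 0.267% of named loci. These shares are given for scale, since the genes were picked for their liver values. The median difference over all named loci was -0.17 and -0.16 for liver minus ventral and dorsal pancreas, and -0.09 and -0.08 for liver minus foregut and medial foregut.

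Without a size limit, all 4 genes stood above both pancreatic libraries in liver, as did 30.8% of named loci, and Shox2 and Tbx18 stood above both E8.5 libraries, as did 38.2%. Hcn4 and Vsnl1 were below both E8.5 libraries and above both pancreatic libraries in liver, a pattern that 4.33% of named loci shared. The highest of the 5 values was in liver for Shox2 and Tbx18, as for 23.4% of named loci, and in medial foregut for Hcn4 and Vsnl1, as for 15.1%. It was in foregut for 11.8% of named loci, in ventral pancreas for 27.5% and in dorsal pancreas for 22.2%, and for 0 of the 4 genes. Hcn4 and Vsnl1 stood higher in both E8.5 libraries than in all 3 E10.5 libraries, as did 15.4% of named loci.

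**Figure D2:**
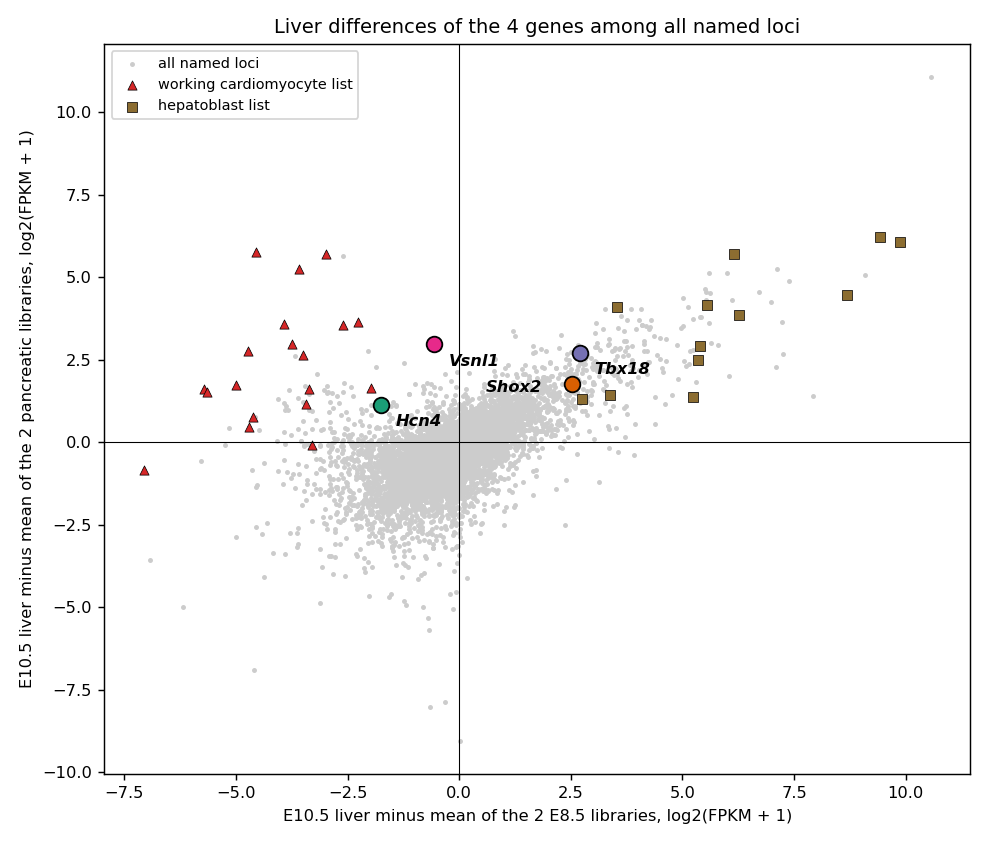
Each point is a named locus, with the liver minus mean E8.5 difference on the horizontal axis and the liver minus mean pancreatic difference on the vertical axis, both in log2(FPKM + 1); triangles are the working cardiomyocyte list and squares the hepatoblast list. Hcn4 (-1.75, 1.14) and Vsnl1 (-0.57, 2.97) lie left of the vertical zero line as the cardiomyocyte genes do, and Shox2 (2.53, 1.75) and Tbx18 (2.70, 2.71) lie right of it as the hepatoblast genes do.

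Ranks within a library do not depend on the scaling between libraries. In liver the 4 genes lay near the middle of all named loci: 55.7% of loci were lower than Shox2, 54.7% lower than Tbx18, 48.7% lower than Vsnl1 and 38.8% lower than Hcn4. In ventral pancreas these shares were 40.0% for Shox2, 16.2% for Tbx18, 10.7% for Hcn4 and 0.921% for Vsnl1. In dorsal pancreas they were 22.1% for Hcn4 and at most 4.96% for the other 3. At E8.5 the pairs parted, with 64.7% and 73.1% of loci lower than Hcn4 and 55.3% and 59.9% lower than Vsnl1 in foregut and medial foregut, against 18.1% and 10.7% for Shox2 and 12.0% and 10.3% for Tbx18.

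**Figure D3:**
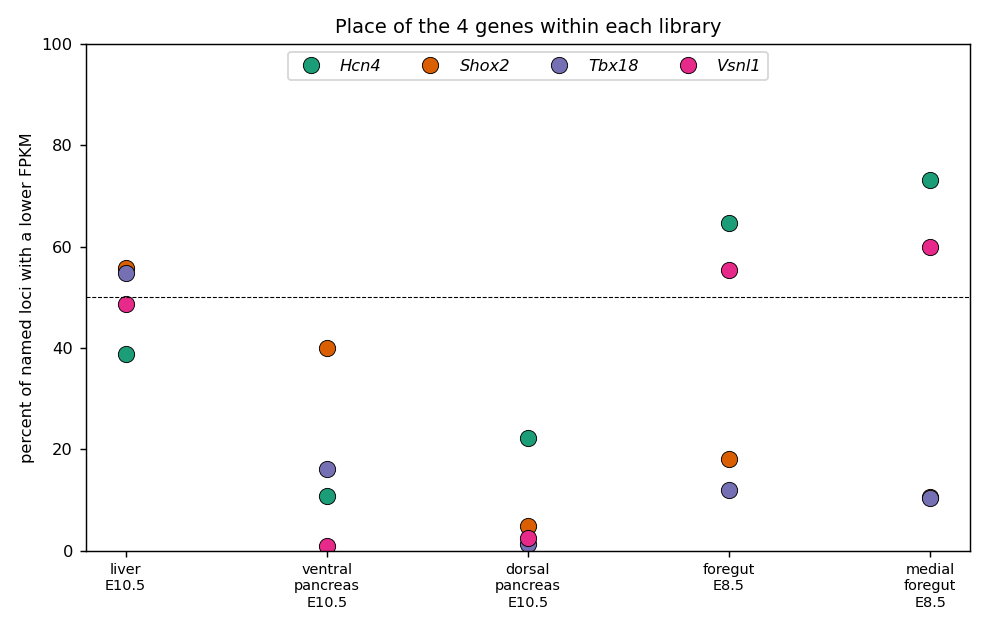
Points give, for each gene and library, the percent of the 12375 named loci with a lower FPKM; the dashed line marks the middle. The 4 genes lie between 38.8% and 55.7% in liver and split at E8.5, where Hcn4 and Vsnl1 lie at 55.3% or more and Shox2 and Tbx18 at 18.1% or less.

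The liver library was checked against markers. All 12 hepatoblast genes found (of 14 listed) were counted as higher in liver than in both E8.5 libraries, and 8 as higher than in both pancreatic libraries; Alb, encoding albumin, stood at 1051 FPKM and the nuclear receptor gene Hnf4a at 158 FPKM. The list summed to 8110 FPKM in liver, 2370 in ventral pancreas, 568 in dorsal pancreas, 101 in foregut and 98.3 in medial foregut. The 8 pancreatic progenitor genes summed to 14.5 FPKM in liver, 216 in ventral pancreas, 171 in dorsal pancreas, 27.4 in foregut and 12.6 in medial foregut, and 7 of them were counted as lower in liver than in both pancreatic libraries. Working cardiomyocyte genes, mainly of the sarcomere, were present as well. The 19 found (of 24 listed) summed to 541 FPKM in liver, 32.5 in ventral pancreas, 20.7 in dorsal pancreas, 5980 in foregut and 10283 in medial foregut. Of these 19 genes, 9 were counted as higher in liver than in both pancreatic libraries, and 17 as lower in liver than in both E8.5 libraries. For the counts of the marker lists, the shares of all named loci higher in liver were 1.04% (pancreatic) and 2.29% (E8.5). The shares lower in liver were 1.51% and 2.12%. In both pancreatic libraries Myl2, encoding a ventricular light chain, was listed at 0; no member of the list was at 0 in the other 3. What part the heart muscle RNA in the liver library had in the levels of the 4 inflow genes was not tested. In such bulk tissue, fewer cells of a type and less RNA per cell cannot be told apart.

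The inflow genes and the cardiomyocyte genes did not keep 1 ratio between libraries. Hcn4 in liver was at 25.6% of its mean E8.5 level and Vsnl1 at 64.7%. The 19 cardiomyocyte genes ranged from 0.113% to 18.9% with a median of 5.17%, so all lay below both. The upper end was Csrp3, a muscle LIM protein gene, at 12.2 FPKM in liver against a mean of 64.7 at E8.5. Shox2 and Tbx18 stood in liver at 1007% and 1359% of their E8.5 means, which were 1.08 and 0.769 FPKM. Over the 10648 named loci with a mean of at least 1 FPKM at E8.5, a limit that Tbx18 did not meet, the median was 91.5%. Per 1000 FPKM of the summed cardiomyocyte list, Hcn4 stood at 9.24 FPKM in liver, 2.72 in foregut and 2.21 in medial foregut. Vsnl1 stood at 15.0 FPKM in liver, 1.91 in foregut and 1.33 in medial foregut on the same basis, and Tbx18 at 19.3, 0.140 and 0.0684. Shox2 stood at 20.1 in liver, 0.237 in foregut and 0.0716 in medial foregut. All 4 genes were higher relative to the heart muscle list in liver than at E8.5, as most named loci would be. The list itself summed to 541 FPKM in liver, against 5980 in foregut and 10283 in medial foregut. Over the 10648 named loci the 5th percentile of the liver level was 14.6% of the E8.5 mean. This basis therefore does not set the 4 genes apart from other loci. In the pancreatic libraries, where the list summed to 32.5 FPKM (ventral) and 20.7 FPKM (dorsal), Hcn4 stood at 33.9 and 123 on this basis, Shox2 at 224 and 24.3, Tbx18 at 54.8 and 5.20, and Vsnl1 at 1.77 and 13.0. Between the E8.5 libraries, the 19 cardiomyocyte genes were 1.28 to 2.10 times higher in medial foregut than in foregut, with a median of 1.74. Hcn4 differed by 1.40 times and Vsnl1 by 1.20 times, while Shox2 and Tbx18 stood lower in medial foregut, at 0.519 and 0.843 times their foregut levels.

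**Figure D4:**
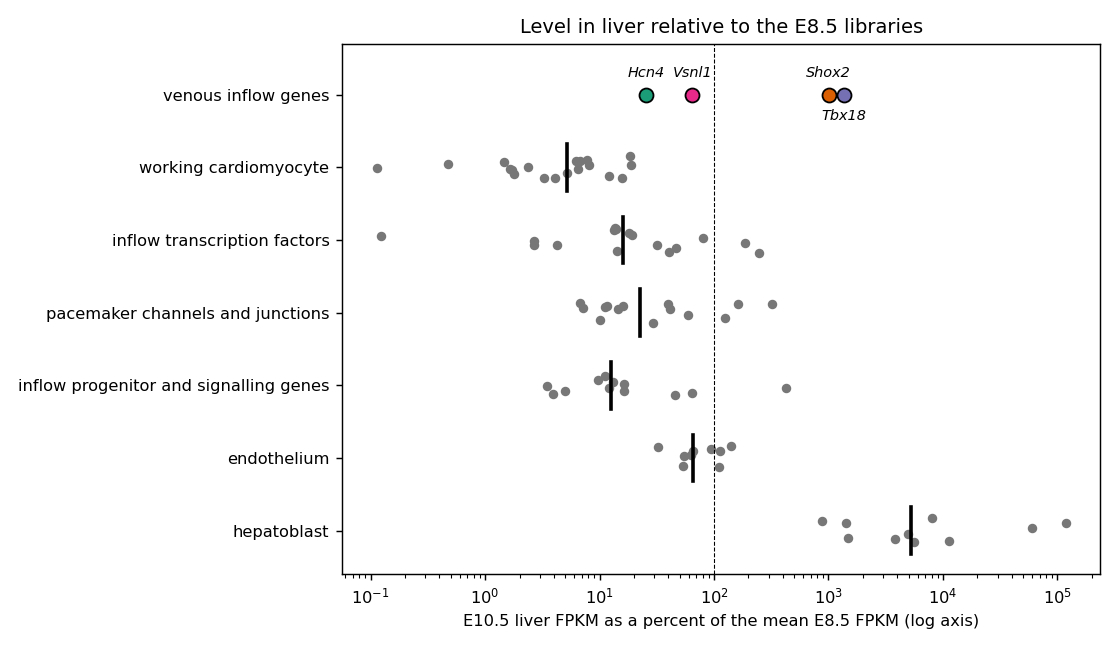
Points give the FPKM in E10.5 liver as a percent of the mean of the 2 E8.5 libraries on a log axis, for the 4 genes in the top row and for the genes of 6 lists with an E8.5 mean of at least 1 FPKM below, with black bars at the medians and a dashed line at equal levels. The limit was not applied to the 4 genes, and Tbx18, with an E8.5 mean of 0.769 FPKM, lies under it. Hcn4 (25.6%) and Vsnl1 (64.7%) lie right of all 19 cardiomyocyte genes. Shox2 (1007%) and Tbx18 (1359%) lie between the hepatoblast genes Foxa3 (877%) and Apob (1422%). The epicardium, mesothelium and septum transversum list is not drawn. Its 9 genes with an E8.5 mean of at least 1 FPKM ranged from 7.02% to 757%, with a median of 25.7%. Its genes under that mean ranged from 55.7% (Tcf21) to 1114% (Upk3b), with Wt1 at 835%.

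Other genes of the venous pole were taken from 3 lists: factors of the inflow tract, channels and junctions of pacemaker cells, and progenitor and signalling genes. Of 48 names 43 were found. These lists, like the other gene lists, were chosen with earlier results of these data known. Their shares are therefore set beside the background for scale only. In liver 1 of the 43, Smoc2, was counted as higher than in both pancreatic libraries (background 1.04%) and 3, Isl1, Gja1 and Sfrp5, as lower (background 1.51%). Against both E8.5 libraries, 0 were counted as higher and 19, or 44.2%, as lower, where the background was 2.12%. The median liver minus foregut and liver minus medial foregut differences were -1.58 and -2.46 for the factors, -1.31 and -1.30 for the channels, and -2.13 and -2.29 for the progenitor genes. Among the 19 were the heart factors Tbx5, Tbx20, Gata5, Hand1 and Mef2c, the retinoic acid synthesis gene Aldh1a2 and the ligand gene Wnt2. Of the 43 genes 27, or 62.8%, stood higher in both E8.5 libraries than in all 3 E10.5 libraries, as Hcn4 and Vsnl1 did, against 15.4% of named loci. Smoc2, encoding a secreted matrix protein, measured 15.9 FPKM in liver, 1.27 in ventral pancreas, 1.49 in dorsal pancreas, 3.80 in foregut and 3.72 in medial foregut. Like Tbx18 it was highest in liver.

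Isl1, Tbx3 and Tbx5, factors of the venous pole, varied in direction, and Nkx2-5 was read beside them as a factor low in the sinoatrial node. Isl1, a LIM homeobox gene of heart progenitors and also of pancreatic endocrine cells and mesenchyme, measured 0.318 FPKM in liver, 13.3 in ventral pancreas, 104 in dorsal pancreas, 5.88 in foregut and 17.8 in medial foregut. Tbx3, which represses working muscle genes in the conduction system and is also made in hepatoblasts, stood at 31.5, 13.7, 3.01, 9.35 and 16.3 FPKM in the same libraries. Tbx5, a factor of the posterior heart field, measured 4.87 FPKM in liver, 2.88 in ventral pancreas, 0.0657 in dorsal pancreas, 27.5 in foregut and 43.5 in medial foregut. Nkx2-5, the heart factor that is missing from mouse sinus horn muscle, measured 0.0191 FPKM in liver, 0.0358 in ventral pancreas, 4.77 in dorsal pancreas, 10.3 in foregut and 20.7 in medial foregut. In the liver library Shox2, Tbx18 and Tbx3 stood above 10 FPKM, Tbx5 at 4.87 FPKM, and Isl1 and Nkx2-5 below 1 FPKM. Nkx2-5 was below 1 FPKM in ventral pancreas as well, so its low level was not particular to liver. Liver levels were 0.123% of the E8.5 mean for Nkx2-5, 2.68% for Isl1, 13.7% for Tbx5 and 245% for Tbx3. The loci of these genes spanned 269%, 101%, 169% and 117% of the annotated length, in the same order. Nppa, a gene of chamber muscle, had no row of its own and is not analysed here.

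Several of the 4 genes are also made outside the heart, and markers of such cells were read beside them. Tbx18 and Wt1 are both made in the epicardium and septum transversum. Of 15 such genes found (of 19 listed), 0 were counted as higher in liver than in both pancreatic libraries (background 1.04%). Against both E8.5 libraries 2, Wt1 and Upk3b, were counted as higher (background 2.29%) and 4 as lower (background 2.12%). At a background of 1.04%, a count of 0 among 15 genes says little. Wt1 measured 6.40 FPKM in liver, 1.41 in ventral pancreas, 4.43 in dorsal pancreas, 0.697 in foregut and 0.835 in medial foregut. Upk3b, a mesothelial gene, stood at 8.84, 0.178, 2.09, 0.773 and 0.816 FPKM in the same libraries. Tcf21 stood at 0.244 FPKM in liver at a locus whose strand is opposite to the annotation. The list summed to 84.7 FPKM in liver, 117 in ventral pancreas, 134 in dorsal pancreas, 309 in foregut and 393 in medial foregut, with no member at 0. The E8.5 sums were mainly Podxl, a surface protein gene also made in endothelium, at 17.4 FPKM in liver, 36.9 in ventral pancreas, 32.3 in dorsal pancreas, 202 in foregut and 293 in medial foregut. The list medians had another order, with 3.16 FPKM in liver, 1.41 in ventral pancreas, 4.43 in dorsal pancreas, 1.20 in foregut and 2.35 in medial foregut.

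Vsnl1 and Hcn4 are also neuronal genes. The 12 neuron and neural crest genes found (of 17 listed) summed to 19.6 FPKM in liver, 43.7 in ventral pancreas, 71.2 in dorsal pancreas, 56.3 in foregut and 31.8 in medial foregut. Liver had the lowest sum, and 2 of the 12 reached 1 FPKM there. Most of the liver sum was Gap43, a growth cone gene, at 15.2 FPKM in liver, 25.0 in ventral pancreas, 6.61 in dorsal pancreas, 10.2 in foregut and 8.74 in medial foregut. It was thus higher in liver than in dorsal pancreas and at E8.5. Foxd3 was listed at 0 in liver, and Tubb3, a neuronal tubulin gene, measured 1.36 FPKM in liver, 4.09 in ventral pancreas, 13.1 in dorsal pancreas, 7.11 in foregut and 5.66 in medial foregut. Shox2 is also made in limb and Tbx18 in somite mesenchyme. Genes of these tissues summed to 22.7 FPKM over the 6 found (of 12 listed) in liver, 13.0 in ventral pancreas, 23.9 in dorsal pancreas, 99.1 in foregut and 128 in medial foregut. None of the 6 was at 0 in any library, or counted as higher in liver than in both pancreatic libraries (background 1.04%). The 9 endothelial genes found (of 10 listed) summed to 142 FPKM in liver, 59.8 in ventral pancreas, 79.8 in dorsal pancreas, 143 in foregut and 179 in medial foregut, with none at 0. The part of these cells in the levels of the 4 genes was not tested.

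Shox2 differed from the other 3 genes in the ventral pancreas library, where it stood at 67.0% of its liver level. Hcn4 stood there at 22.0% of its liver level, Tbx18 at 17.0% and Vsnl1 at 0.709%. Among 12 hepatoblast genes the share ranged from 7.42% to 72.3% with a median of 17.1%, and among the 15 cardiomyocyte genes that reached 1 FPKM in liver the median was 4.14%. It was 12.7% for 9 endothelial genes and 42.7% for 13 epicardial and mesothelial genes. Over the 10266 named loci with at least 1 FPKM in liver the median was 108%, with 37.7% and 315% as the 5th and 95th percentiles, so Shox2 lay within that range and below its median. Shox2 in ventral pancreas stood 14.4 times above dorsal pancreas, a difference of 2.46 on the log2(FPKM + 1) scale, larger than that of 99.4% of named loci. Tbx18 stood 16.5 times above dorsal pancreas in ventral pancreas, at levels of 1.78 and 0.108 FPKM. Hcn4 and Vsnl1 ran the other way between the buds, with 1.10 FPKM in ventral and 2.55 in dorsal pancreas for Hcn4 and 0.0574 and 0.269 for Vsnl1.

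Hcn4 was set beside the related channel genes Hcn2 and Hcn3. Hcn3 measured 1.36 FPKM in liver, 1.25 in ventral pancreas, 1.87 in dorsal pancreas, 1.22 in foregut and 0.978 in medial foregut. Hcn2 stood at 0.611, 0.672, 1.03, 1.99 and 0.944 FPKM in the same libraries. Hcn4 was above both in liver, in dorsal pancreas and at E8.5, and below Hcn3 in ventral pancreas. Neither Hcn2 nor Hcn3 was counted as higher or lower in liver than in both pancreatic or both E8.5 libraries. Of 17 T-box genes listed 7 were found. Tbx18 took place 3 among them in liver, below Tbx3 and Mga (13.4 FPKM, over a locus that spans 1.59% of the annotated gene), and last place in both E8.5 libraries. Tbx20, a heart muscle factor and the highest of the 7 at E8.5, stood at 2.94 FPKM in liver, against 44.6 in foregut and 93.3 in medial foregut. Tbx1 and Tbx2 stood at 0.205 and 0.645 FPKM in liver. Of the 6 T-box genes other than Tbx18, 4 were counted as lower in liver than in both E8.5 libraries and 0 as higher. Of 9 neuronal calcium sensor genes listed 6 were found, and Vsnl1 took place 3 in liver and at E8.5 and the last place in both pancreatic libraries. Hpcal1 was the highest of the 6 in each library, at 55.7 FPKM in liver, 60.2 in ventral pancreas, 41.2 in dorsal pancreas, 37.6 in foregut and 28.2 in medial foregut. Ncald, Ncs1, Hpca and Guca1b stood at 5.03, 8.74, 0.244 and 0.741 FPKM in liver. None of these 5 genes related to Vsnl1 was counted as higher or lower there than in both pancreatic or both E8.5 libraries. For the counts of the families, the shares of all named loci higher in liver were 1.04% (pancreatic) and 2.29% (E8.5). The shares lower in liver were 1.51% and 2.12%.

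Likeness to other genes was measured as the Euclidean distance between profiles of log2(FPKM + 1) over the 5 libraries, where 0 means identical values. Closest to Hcn4 were Arhgap31 (distance 0.63), Cacna2d2 (0.72), Twist1 (0.80), Fam49a (0.93) and Ehbp1l1 (0.94). Arhgap31 measured 3.84 FPKM in liver, 0.94 in ventral pancreas, 1.88 in dorsal pancreas, 12.7 in foregut and 18.4 in medial foregut. Cacna2d2, which encodes a calcium channel subunit, stood at 3.89, 1.39, 2.79, 22.1 and 31.7 FPKM in the same libraries. Closest to Shox2 were Lhx2 (0.56), Hlf (0.94), Gckr (0.96), Zan (0.97) and Slc7a8 (0.98). Lhx2, a LIM homeobox gene, measured 7.75 FPKM in liver, 8.65 in ventral pancreas, 0.284 in dorsal pancreas, 1.20 in foregut and 0.844 in medial foregut. Closest to Tbx18 were Palmd (0.56), Rab17 (0.64), Slc16a7 (0.77), Gdf15 (0.82) and H2-Q8 (0.87). Palmd measured 9.24 FPKM in liver, 1.77 in ventral pancreas, 0.524 in dorsal pancreas, 0.510 in foregut and 0.723 in medial foregut. Vsnl1 had no neighbour as close, and its nearest were the muscle gene Smpx (1.51), Atp1b2 (1.60), Itgb3 (1.71), the ligand gene Wnt2 (1.72) and Pgam2 (1.73). Smpx measured 2.31 FPKM in liver, 0.0662 in ventral pancreas, 0.0762 in dorsal pancreas, 9.27 in foregut and 15.6 in medial foregut. Among the 4 genes, Shox2 and Tbx18 were 1.68 apart and Hcn4 and Vsnl1 2.06, while distances between the pairs ran from 4.40 to 5.36.

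No other locus of the table overlapped any of the 4 genes. In length the intervals were 101% of the GENCODE M21 span for Tbx18, 100% for Vsnl1, 117% for Hcn4 and 137% for Shox2, and all 4 lay on the annotated strand. The nearest named loci were 3.1 kb from Shox2 (Rsrc1), 5.5 kb from Vsnl1 (Smc6), 6.0 kb from Hcn4 (Neo1) and 447.3 kb from Tbx18 (4922501C03Rik). Rsrc1, on the other strand than Shox2, measured 15.6 FPKM in liver, 20.6 in ventral pancreas, 15.0 in dorsal pancreas, 15.2 in foregut and 13.6 in medial foregut. Smc6, a chromosome maintenance gene, stood between 10.7 and 13.7 FPKM in all 5 libraries. Neo1 was lowest in liver, at 15.4 FPKM, against 24.5 to 36.5 FPKM in the other 4. The patterns of these close neighbours were unlike those of Shox2, Vsnl1 and Hcn4. On the far sides, 2410076I21Rik (Hcn4), Veph1 (Shox2), Nt5e (Tbx18) and Tubb2a-ps2 (Vsnl1) lay 164.5 kb or more away. Nt5e, 596.1 kb from Tbx18, measured 13.0 FPKM in liver, 11.9 in ventral pancreas, 0.404 in dorsal pancreas, 0.623 in foregut and 0.276 in medial foregut.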

How the data were processed

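The authors deposited 1 table of FPKM values with 1 column per library, per the file headers. TopHat 1.33, Cufflinks 1.3.0 and the build mm9 are named in the submitters' processing notes, with no role or order; no source used here states the scaling between libraries. Per the labels' protocols, libraries were made with random hexamers and no strand marking. The 1678 loci without a name entered no comparison. Summed FPKM per library lay between 437581 and 506529, and 10266 to 11165 named loci reached 1 FPKM. Low values held no whole-read steps (the most common ratio between the E8.5 libraries, to 3 decimals, was shared by 4 of 517 loci under 0.3 FPKM), so depth in reads is unknown and no interval is given.

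The 4 genes and the 13 gene lists were chosen with earlier results of these data known. List genes were matched by exact name (133 of 173 names); those within joined names were not used. Differences are of log2(FPKM + 1). Named genes are the 4 genes, their 5 nearest profiles, their nearest loci, the 3 families, and list genes with the largest differences between liver and both pancreatic libraries, of which some are not named, plus 9 marker genes. Aldh1a2, Apob, Foxa3, Foxd3, Gap43, Gata5, Hand1, Mef2c and Myl2 are outside this rule and were named after their values were seen. 1 gene that the rule takes is not reported here. Python 3.11.15, pandas 2.3.3, numpy 2.4.6 and matplotlib 3.10.9 were used, with names, strand and span from GENCODE M21 (GRCm38) and 250-base promoters from RefSeq (GRCm38.p6).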

Additional observations from a re-analysis of the deposited data

Results flagged for a closer look

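Shox2 and Tbx18 lay on opposite sides of their E8.5 levels in different E10.5 libraries. Both stood above both E8.5 libraries in liver and in ventral pancreas, and below both in dorsal pancreas. The dorsal pancreas side was small and lay at low levels, with no dorsal or E8.5 value above 1.42 FPKM. Dorsal pancreas minus foregut and minus medial foregut, in log2(FPKM + 1), was -0.69 and -0.21 for Shox2. For Tbx18 these differences were -0.73 and -0.62. On the log2(FPKM + 1) scale, liver exceeded dorsal pancreas by 2.98 for Shox2 and 3.37 for Tbx18, and ventral exceeded dorsal pancreas by 2.46 for Shox2 and 1.33 for Tbx18. These differences were not tested, since each tissue had 1 library, and the E8.5 libraries are shared by all of them.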

How the results depend on the processing

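No paired analysis was possible because each tissue had 1 library. The 16 differences of liver minus another library kept their sign in 64 of 64 recomputations with another scaling or pseudocount, but not their size. Against ventral pancreas they ran from 0.71 to 2.09 for Hcn4, 0.37 to 0.75 for Shox2, 1.19 to 2.49 for Tbx18 and 1.37 to 5.70 for Vsnl1. Against dorsal pancreas they ran from 0.41 to 0.95, 1.53 to 4.18, 1.60 to 5.67 and 1.31 to 4.47 for the same genes. Against foregut they ran from -1.74 to -1.09, 1.30 to 2.85, 1.41 to 3.50 and -0.60 to -0.32, and against medial foregut from -2.16 to -1.47, 1.47 to 3.71, 1.44 to 3.71 and -0.74 to -0.51. Median-ratio rescaling moved the median of all named loci for liver minus ventral pancreas to 0.03, against -0.17 as deposited. With a pseudocount of 5 FPKM the 3 counts of the 4 genes (2, 2 and 1) each became 0, with backgrounds of 0.453%, 1.16% and 0.38%; by construction this pseudocount shrinks differences of genes near 10 FPKM. The same counts stayed at 2, 2 and 1, with the same genes, under both rescalings. Median-ratio rescaling could not have lowered them, since it raised liver relative to each other library. Its backgrounds were 1.27%, 2.53% and 0.994%. Rescaling to a total of 1000000 lowered some differences, such as Shox2 in liver minus ventral pancreas, from 0.52 to 0.46. It also enlarged all values against the pseudocount and floor, and its backgrounds were 1.16%, 2.77% and 0.913%. The counts were also unchanged with a pseudocount of 0.1, a floor of 1 FPKM or none, and a size limit of 1. Those looser settings could only add genes, so they could not lower the counts. With a size limit of 1 the backgrounds rose to 3.11%, 5.24% and 2.36%. As deposited, Tbx18 passed against ventral pancreas at 2.04, close to the limit of 2. The count of other inflow genes higher in liver than in both pancreatic libraries, 1 as reported, was 2 with libraries rescaled to a total of 1000000 (Smoc2 and Wnt2), 0 with a pseudocount of 5 and 3 with a size limit of 1 (Smoc2, Slc8a1 and Tbx3). An alternative added after seeing the data, both rescalings of the count against the E8.5 libraries, left it at 0. Of the 20 genes named by Euclidean distance, 1 (Arhgap31, for Hcn4) was among the 20 named by Pearson correlation, which ignores the size of differences. Depth in reads is unknown, so values under 1 FPKM carry no stated precision.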
